A study of Mus musculus with 12 samples.

Results

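The comparison described here is the lung of mice lacking Rgs4 against the lung of wild-type mice, both without mould exposure. It rests on 3 libraries of Rgs4 knockout lung given phosphate-buffered saline (KO_PBS 9, 10 and 11) and 3 of wild-type lung given the same control (WT_PBS 15, 16 and 17), 6 of the 12 libraries in the series. The other 6 come from the same genotypes exposed to the mould Aspergillus fumigatus (KO_Af 12 to 14 and WT_Af 18 to 20). They show whether a genotype difference was also present there. They also enter the filter on low values and the estimate of spread behind each p-value. All libraries are poly-A RNA of whole lung from mice labelled Balb/cJ, and the study asked how Rgs4 acts on airway hyperresponsiveness. The labels do not say how old the mice were, how the knockout was made or by which route saline was given. Nothing in the labels says that the 3 libraries of a group are 3 separate animals, so each p-value reflects how these libraries scatter. Library numbers run from 9 to 14 for knockout and from 15 to 20 for wild type, so anything that follows the library number cannot be told apart from genotype.

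Rgs4 belongs to the regulators of G protein signalling, proteins that speed GTP hydrolysis by Gq and Gi alpha subunits and so shorten the signal of receptors for acetylcholine, histamine, endothelin and other agonists. In the airway it is known for limiting contraction signals in smooth muscle. Other systems also come up below. Cytosolic chaperones hold and refold proteins, and heat shock factor 1 drives their genes under proteotoxic stress. The glucocorticoid receptor drives a distinct set of genes when corticosterone is high. The endoplasmic reticulum has its own chaperones, which rise when unfolded proteins build up in it.

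The unit throughout is CPM, a read count scaled to library size with TMM factors as deposited, and PBS library totals ran from 21188313 to 27762459 reads. A gene was tested where it reached 1 CPM in at least 3 of the 12 libraries (16126 genes), and differences are knockout minus wild type on the log2(CPM + 0.5) scale with their standard error (SE). "Called" means a Benjamini-Hochberg adjusted p under 0.05 in limma, the model used for every adjusted p given below. Of the genes tested, 573 (3.55%) were called: 306 (1.9%) were higher and 267 (1.66%) lower in knockout. Of these, 134 differed at least 2-fold, 56 of them higher and 78 lower. The knockout and wild-type values were without overlap for all 573, as they were for 33.1% of all genes tested. The median difference over all genes tested was 0.01. An unadjusted limma p under 0.05 was reached by 2797 genes (17.3%) in either direction, the share to set beside such counts below. Leaving out single knockout libraries lowered the count to 182 (KO_PBS 9), 131 (KO_PBS 10) and 167 (KO_PBS 11), and leaving out single wild-type libraries lowered it to 334 (WT_PBS 15), 430 (WT_PBS 16) and 246 (WT_PBS 17). A core of 112 genes, 47 higher and 65 lower, was called in all 6 of these fits, and those genes lead the account.

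WT_PBS 17 and WT_PBS 15 stood apart in their cell type markers. Squamous epithelium markers summed to 679 CPM in WT_PBS 17 against 9.69 to 18.6 CPM in the other 5 PBS libraries, with 5071 reads of the squamous keratin Krt13 there and at most 3 in any other PBS library. WT_PBS 15 had the lowest summed B, T and natural killer (NK) cell markers and the highest fibroblast sum, 14006 CPM against 7748 to 8593 CPM elsewhere. The Y-linked genes Kdm5d, Uty, Ddx3y and Eif2s3y had 0 or 1 read in every library and Xist had 8052 reads or more, so the groups did not differ in sex by these genes. Sftpc, the surfactant protein of alveolar type 2 cells and a defining gene of lung, was at 8512 to 14586.5 CPM in the 6 PBS libraries.

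Rgs4 itself (ENSMUSG00000038530.11, GRCm38 chromosome 1, 169741477 to 169747642, minus strand) was at 1.10, 1.003 and 0.571 CPM in KO_PBS 9, 10 and 11 and at 25.8, 20.7 and 22.3 CPM in WT_PBS 15, 16 and 17. Every knockout library lay far below every wild-type library. The difference was −4.09 ± 0.18 (SE, adjusted p = 7.97e-07). A residue of 13 to 31 Rgs4 reads per knockout library remained, against 472 to 624 per wild-type library, and the table does not show from which exons these reads came.

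The list with the most called genes was that of the cytosolic chaperones and their partners. Of 51 heat shock chaperone genes tested, 28 (54.9%) fell and 0 rose, with a list median of −0.42 and 47 members below 0. Over all genes tested 3.55% were called. At an unadjusted p under 0.05 there were 35 lower and 0 higher members, where 17.3% of all genes tested passed that threshold in either direction. Of the 28, 17 were called with any single library left out, and the count ran from 18 without KO_PBS 9 to 25 without WT_PBS 16. The summed level of the list was 5801, 6145 and 6168 CPM in the knockout libraries and 11399, 10959.6 and 14192 CPM in the wild-type libraries. The highest sum was in WT_PBS 17, the library with squamous markers, and without it 19 members were called lower. The part of the squamous tissue in that sum was not tested.

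The member with the smallest p was Hsph1, the HSP110 nucleotide exchange factor that resets HSP70 (ENSMUSG00000029657.15). It was at 30.3, 33.4 and 32.7 CPM in KO_PBS 9, 10 and 11 and at 243, 187 and 288 CPM in WT_PBS 15, 16 and 17. The knockout libraries were nearly equal, and the lowest wild-type library was several times above all of them. The difference was −2.86 ± 0.18, or 7.25-fold (adjusted p = 1.98e-05). Hspa4 and Hspa4l, the other exchange factors of its family, had differences of −0.42 ± 0.08 and −0.83 ± 0.13 (adjusted p = 0.0187 and 0.00618), the call of Hspa4 being lost without KO_PBS 9, KO_PBS 10, KO_PBS 11 or WT_PBS 15 (adjusted p up to 0.0816).

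Among the HSP70 proteins the constitutive Hspa8 was at 781, 907 and 945 CPM in knockout and 2209, 2017 and 2462 CPM in wild type. Wild-type lung held more than double the knockout level in each pairing of libraries. Its difference was −1.34 ± 0.15 (adjusted p = 0.00162). The inducible Hspa1b was at 24.1, 127 and 25.2 CPM in KO_PBS 9, 10 and 11 and at 267, 450 and 1077 CPM in WT_PBS 15, 16 and 17. These groups did not overlap, but KO_PBS 10 stood above the other knockout libraries and WT_PBS 17 above the other wild-type libraries. The difference of −3.55 ± 0.70 was called (adjusted p = 0.0187), and the call was lost without KO_PBS 9, KO_PBS 11 or WT_PBS 17 (adjusted p up to 0.085). Its near-identical copy Hspa1a followed at −3.35 ± 0.72 (adjusted p = 0.029, up to 0.115 on leaving out KO_PBS 11), and the call also failed without KO_PBS 9, WT_PBS 16 or WT_PBS 17. Reads of these copies cannot be assigned with certainty.

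Of 9 genes of J-domain proteins, which deliver clients to HSP70, 5 fell and 4 (Dnaja2, Dnaja3, Dnajb6 and Dnajc2) were not called. Dnaja1 was at 145, 151 and 161 CPM in knockout and 537, 450 and 611 CPM in wild type, a difference of −1.79 ± 0.14 (adjusted p = 9.71e-05). Dnajb1, a classical heat shock target, was at 46.4, 51.7 and 45.4 CPM against 150, 181 and 361 CPM, with WT_PBS 17 again highest (−2.15 ± 0.25, adjusted p = 0.00162). Both kept their calls in all 6 fits with a library left out, as did Dnaja4 (−0.87 ± 0.13, adjusted p = 0.00607). Dnajb4 (−0.51) and Dnajb2 (−0.39) were called in the full fit and in only 1 of the 6, without WT_PBS 16 and WT_PBS 15 in that order (up to 0.0722 and 0.125 otherwise).

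The HSP90 machine moved with them. Hsp90aa1, the inducible cytosolic HSP90, was at 319, 330 and 308 CPM in knockout and 794, 806 and 1008 CPM in wild type (−1.44 ± 0.12, adjusted p = 0.000154). The constitutive Hsp90ab1 was at 985, 1009 and 1007 CPM against 2102, 1928 and 2345 CPM (−1.08 ± 0.13, adjusted p = 0.0022). In both genes the 3 knockout libraries agreed closely and every wild-type library was near double their level or above. The co-chaperones that load or steer HSP90 fell in the same libraries: Stip1, the HSP70 to HSP90 adaptor, by 1.12, Chordc1 by 1.09, Cacybp by 1.08, the immunophilin Fkbp4 by 0.89, and the ATPase activators Ahsa1 and Ahsa2 by 0.70 and 1.17. Each of these 6 was called with any library left out. St13, which binds HSP70, fell by 0.61 (adjusted p = 0.00246) and also kept its call. Ptges3, the p23 co-chaperone, fell by 0.53 (adjusted p = 0.012), a call lost without KO_PBS 9, KO_PBS 10 or WT_PBS 17 (adjusted p up to 0.0684). Bag3, an exchange factor that links HSP70 to autophagy, fell by 0.67 (adjusted p = 0.0205), a call lost without any knockout library or WT_PBS 17 (up to 0.089). The smallest falls were of Cct6a and Cct3, subunits of the cytosolic chaperonin, by 0.39 and 0.37 (adjusted p = 0.0396 and 0.0356). Cct6a lost its call whichever library was left out, and Cct3 kept it only without WT_PBS 16 (up to 0.151 and 0.144).

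Small heat shock proteins were uneven. Hspb1 was at 50.8, 55.4 and 54.1 CPM in knockout and 124, 153 and 275 CPM in wild type (−1.69 ± 0.23, adjusted p = 0.00332), and Hspb8 fell by 0.68 (adjusted p = 0.0138; lost without KO_PBS 10, KO_PBS 11 or WT_PBS 17, up to 0.072). Cryab, an alpha-crystallin abundant in muscle, was at 220, 192 and 166 CPM against 170, 200 and 217 CPM, groups that overlapped (−0.03 ± 0.25, adjusted p = 0.977). Serpinh1, the collagen chaperone HSP47 of the endoplasmic reticulum and itself a heat shock target, was at 206, 195 and 213 CPM against 500, 335 and 386 CPM (−0.97 ± 0.13, adjusted p = 0.00355). The mitochondrial chaperonin Hspd1 was at 113, 112 and 138 CPM against 186, 181 and 228 CPM (−0.71 ± 0.13, adjusted p = 0.0123), and its call was lost without KO_PBS 9 or KO_PBS 10 (adjusted p up to 0.0719). Its partner Hspe1, which shares a divergent promoter with it, was at 23.2, 26.1 and 32.5 CPM against 39.9, 42.2 and 60.6 CPM and was not called (−0.78 ± 0.21, adjusted p = 0.0729). Hsf1, the gene of the transcription factor itself, was not called (−0.20 ± 0.07, adjusted p = 0.175).

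**Figure D1:**
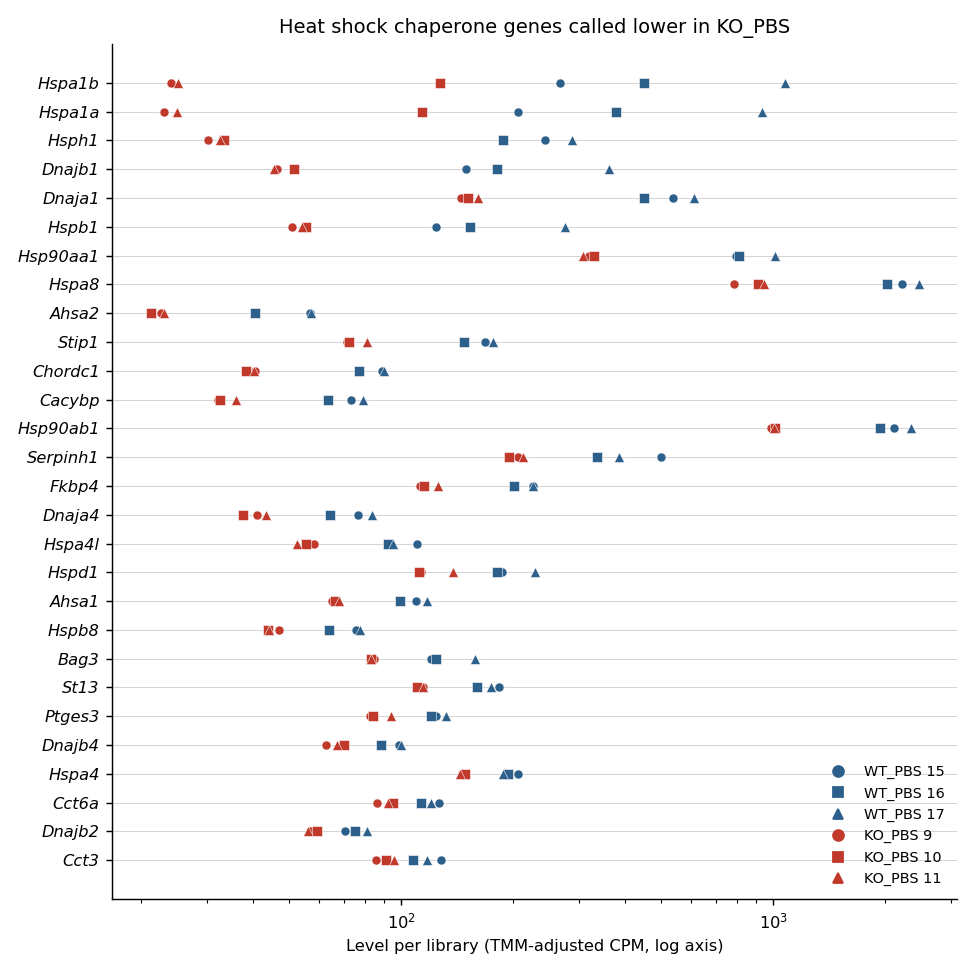
Level of each of the 28 heat shock chaperone genes called lower in knockout, per library (CPM, log axis), with wild-type libraries in blue and knockout libraries in red, ordered by the size of the difference. The knockout libraries lie left of the wild-type libraries in every row, and the mean difference is largest for Hspa1b, Hspa1a and Hsph1, where Hsph1 runs from 30.3 to 33.4 CPM in knockout and from 187 to 288 CPM in wild type.

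A set of 13 called processed pseudogenes went with the same genes. They were 12 of 527 processed and 1 of 37 transcribed processed pseudogenes tested, where 3.55% of all genes tested were called. All 13 were lower in knockout, and the transcript each matched best belonged to a called heat shock gene: Hspa8 for 6 of them, Dnaja1 for 3, Hsp90aa1 for 3 and Hsp90ab1 for 1. Gm15459, which matches Hspa8 at 99.7% identity over its whole length, was at 140, 158 and 154 CPM in knockout and 413, 358 and 449 CPM in wild type. Such copies share reads with their parents, so their calls are not separate evidence.

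The promoters of called chaperones are shown because heat shock factor 1 binds inverted repeats of a 5-base unit (nGAAn), which a reader can look for in the letters. Sequences are RefSeq promoter windows of 300 bases on GRCm38.p6, running from upstream of the annotated start to shortly after it, 5′ to 3′ on the strand of the gene. Capitals mark the heat shock element: 3 units (GAA-NN-TTC-NN-GAA or TTC-NN-GAA-NN-TTC, read without the hyphens and joined where matches overlap) in Hsph1 (chr5:149636266-149636565, minus), Chordc1 (chr9:18292017-18292316, plus) and Hspd1 (chr1:55087883-55088182, minus), and 2 units only (GAA-NN-TTC or TTC-NN-GAA) in Hspa1b (chr17:34959189-34959488, minus).
Hsph1: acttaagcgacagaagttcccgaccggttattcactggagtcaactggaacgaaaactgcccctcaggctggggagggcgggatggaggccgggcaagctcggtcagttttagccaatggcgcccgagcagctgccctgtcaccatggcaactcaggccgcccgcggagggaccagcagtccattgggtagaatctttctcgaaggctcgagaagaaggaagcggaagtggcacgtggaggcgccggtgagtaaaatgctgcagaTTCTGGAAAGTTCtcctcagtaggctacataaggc
Chordc1: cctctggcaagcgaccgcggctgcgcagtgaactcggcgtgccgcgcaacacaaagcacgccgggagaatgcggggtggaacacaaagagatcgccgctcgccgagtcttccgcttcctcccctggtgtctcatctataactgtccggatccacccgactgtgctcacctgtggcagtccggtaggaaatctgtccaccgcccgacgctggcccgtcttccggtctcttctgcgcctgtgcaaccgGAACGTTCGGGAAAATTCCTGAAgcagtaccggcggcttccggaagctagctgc
Hspd1: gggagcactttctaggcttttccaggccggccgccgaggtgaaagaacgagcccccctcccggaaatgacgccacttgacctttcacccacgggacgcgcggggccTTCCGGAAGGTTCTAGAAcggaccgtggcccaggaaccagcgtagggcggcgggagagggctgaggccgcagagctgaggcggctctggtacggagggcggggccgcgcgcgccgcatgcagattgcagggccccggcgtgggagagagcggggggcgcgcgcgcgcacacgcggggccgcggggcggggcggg
Hspa1b: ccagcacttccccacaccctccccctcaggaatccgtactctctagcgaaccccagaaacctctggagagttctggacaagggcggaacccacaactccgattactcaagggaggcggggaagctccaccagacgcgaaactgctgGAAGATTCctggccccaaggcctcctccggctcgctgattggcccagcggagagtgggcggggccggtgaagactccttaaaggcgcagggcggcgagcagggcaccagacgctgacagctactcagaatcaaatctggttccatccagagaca

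The match in Hsph1 starts 15 bases after the annotated start, that in Chordc1 spans the start, and that in Hspd1 begins 144 bases before it. Both strands were searched with exact letters. Of the 24 called chaperone genes with a window in the table, 3 (12.5%) held the 3-unit element, against 0.557% of the 11482 tested genes with a window and 2 of the 17 chaperone genes that were not called. The 2-unit element, contained in the longer one, was in 13 of the 24 (54.2%), in 6 of the 17 (35.3%) and in 14.1% of all tested genes with a window. Among all called genes it was in 20.7% of those lower and 14.9% of those higher in knockout. A match here is a string of letters, not a shown binding site, and windows without one may hold sites in other spellings or places.

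Genes known as targets of the glucocorticoid receptor included some of the largest single falls. Of 40 tested, 8 (20%) fell and 0 rose, with a list median of −0.59 and 32 members below 0. Over all genes tested 3.55% were called. At an unadjusted p under 0.05 there were 19 lower members and 1 higher, where 17.3% of all genes tested passed in either direction. Leaving out a library left 3 calls without KO_PBS 9, KO_PBS 10 or KO_PBS 11, 5 without WT_PBS 15, 7 without WT_PBS 16 and 4 without WT_PBS 17, and only Fkbp5 and Cdkn1a were called in all 6 fits.

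Fkbp5, the HSP90-bound immunophilin that dampens the receptor and is among its most sensitive targets (ENSMUSG00000024222.16), was at 18.5, 14.4 and 13.5 CPM in KO_PBS 9, 10 and 11 and at 157, 127 and 132 CPM in WT_PBS 15, 16 and 17. The groups were far apart and tight within themselves. The difference was −3.13 ± 0.42, or 8.75-fold (adjusted p = 0.00332). Zbtb16, the zinc finger repressor PLZF, was at 13.2, 21.8 and 19.7 CPM in knockout and 222, 243 and 259 CPM in wild type, a 13.2-fold difference (−3.72 ± 0.63, adjusted p = 0.0106) that just missed the threshold without KO_PBS 9 (adjusted p = 0.0506). Cdkn1a, the cell cycle inhibitor p21, was at 61.2, 58.5 and 59.0 CPM against 160, 135 and 168 CPM (−1.36 ± 0.15, adjusted p = 0.00146). It is a target of p53 and other factors too.

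The other called members lost their calls in more of the fits with a library left out. The spread in those fits, and in the full fit that made the calls, also takes in the mould-exposed libraries. Map3k6, for example, was at 16.5, 18.2 and 17.1 CPM in KO_PBS and 56.1, 65.7 and 72.8 CPM in WT_PBS. In KO_Af 12, 13 and 14 it was at 16.4, 16.2 and 73.6 CPM. A fit of the PBS libraries alone called 18 members of the list lower. Whether the mould-exposed libraries had a part in the lost calls was not tested. Fam107a, an actin-binding stress gene, was at 7.46, 7.32 and 6.07 CPM against 41.3, 31.7 and 34.8 CPM (−2.29 ± 0.41, adjusted p = 0.0134; lost without KO_PBS 10 or KO_PBS 11, up to 0.063). Glul, glutamine synthetase, was at 426, 384 and 418 CPM against 666, 651 and 798 CPM (−0.78 ± 0.15, adjusted p = 0.0201; lost without any knockout library or WT_PBS 17, up to 0.101). Map3k6, Klf15 and Rgcc had differences of −1.87, −1.29 and −1.21 (adjusted p = 0.0471, 0.0248 and 0.031), and each lost its call whichever library was left out (up to 0.142, 0.0953 and 0.115).

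Several equally well-known targets were not called, and 1 pointed the other way. These were chosen for mention after their values were seen. Tsc22d3, which encodes GILZ, was at 239, 338 and 284 CPM in knockout against 488, 386 and 467 CPM in wild type (−0.65 ± 0.20, adjusted p = 0.113). Klf9 stood at −0.72 ± 0.18 (adjusted p = 0.0509) and Per1 at −0.90 ± 0.33 (adjusted p = 0.177). Sgk1 was at 149, 161 and 150 CPM against 177, 149 and 152 CPM, overlapping groups (−0.05 ± 0.13, adjusted p = 0.895). Dusp1, a phosphatase that is also an immediate early gene, was at 440, 563 and 569 CPM against 271, 333 and 489 CPM, again overlapping (0.56 ± 0.18, adjusted p = 0.123). The receptor gene Nr3c1 was at 215, 224 and 209 CPM against 197, 202 and 194 CPM (0.13 ± 0.10, adjusted p = 0.581). The full response element (AGAACA and TGTTCT with 3 bases between them) was in the window of 1 of the 11482 tested genes, Sgk1. A shorter form (AGAACA and TGT, or ACA and TGTTCT, with the same gap) was in that of 1 of 7 called members, Fam107a. The shorter form was also in 1 of 27 members that were not called, Sgk1, and in 0.374% of all tested genes with a window.

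**Figure D2:**
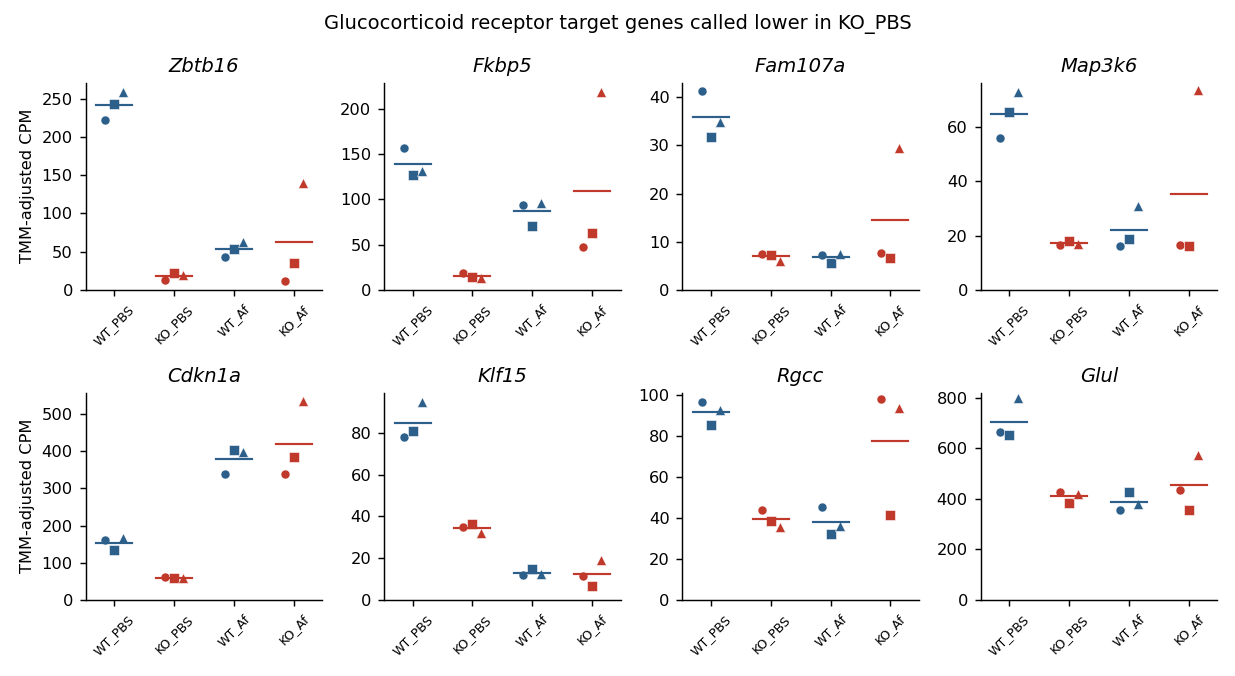
Level of the 8 called glucocorticoid receptor targets per library (points, CPM, linear axes starting at 0) in the 4 groups, with the mean of 3 libraries as a line and a different marker shape for each library of a group. KO_PBS lies below WT_PBS in all 8 panels, and in the mould-exposed groups the values overlap between genotypes, with KO_Af 14 (triangle) highest for Fkbp5 at 219 CPM.

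Several genes of the circadian clock are also glucocorticoid targets. Of 22 clock genes tested, 2 fell and 0 rose (9.09% called, against 3.55% of all genes tested), with a median of −0.27. Per2, a core repressor of the clock, was at 24.9, 27.5 and 24.6 CPM in knockout and 58.3, 71.8 and 77.6 CPM in wild type, groups that did not overlap (−1.41 ± 0.24, adjusted p = 0.0112), and missed the threshold without KO_PBS 11 (adjusted p = 0.0518). Ciart, another repressor of the loop, fell by 0.90 (adjusted p = 0.0456) and lost its call without any 1 of the 6 libraries (up to 0.163). The labels do not give the time of day at which lungs were taken.

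Of 3 cold-inducible RNA-binding genes 1 rose (33.3% called, against 3.55% of all genes tested). The gene was Cirbp, which binds and stabilises transcripts in the cold. It was at 80.2, 91.7 and 82.9 CPM in KO_PBS 9, 10 and 11 and at 40.0, 38.9 and 43.8 CPM in WT_PBS 15, 16 and 17. Each knockout library held close to double the level of any wild-type library or more, and the difference of 1.04 ± 0.17 (adjusted p = 0.00771) was called with any library left out. Rbm3 (0.52 ± 0.14, adjusted p = 0.0613) and Srsf5 (0.43 ± 0.12, adjusted p = 0.0733), the other 2 genes in this list, were not called. All 3 passed an unadjusted p of 0.05, as did 17.3% of all genes tested in either direction.

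Fewer genes of endoplasmic reticulum folding and stress were called. Of 37 tested, 7 fell, 0 rose and 30 were not called (18.9% called, against 3.55% of all genes tested). The median was −0.24, and 21 were lower at an unadjusted p under 0.05, which 17.3% of all genes tested passed in either direction. The count of 7 fell to 1 without KO_PBS 9 or KO_PBS 10, 2 without KO_PBS 11 or WT_PBS 17 and 4 without WT_PBS 15, and stayed at 7 without WT_PBS 16. Hspa5, the HSP70 of this compartment (BiP), was at 376, 398 and 433 CPM in knockout and 792, 606 and 742 CPM in wild type, without overlap (−0.82 ± 0.14, adjusted p = 0.0106; lost without KO_PBS 9 or KO_PBS 10, up to 0.0558). Ddit3, the stress transcription factor CHOP, was the member called in all 6 fits, at 14.9, 13.5 and 15.6 CPM against 21.9, 23.0 and 25.9 CPM (−0.67 ± 0.11, adjusted p = 0.00787). Herpud1, an adaptor for degradation, and the secreted factor Manf both fell by 0.69, Creld2 by 0.65, the exchange factor Hyou1 by 0.58 and the transcription factor Xbp1 by 0.35 (adjusted p between 0.0134 for Herpud1 and 0.0453 for Manf), and each of these 5 lost its call without any single knockout library or WT_PBS 17, and all but Herpud1 also without WT_PBS 15 (up to 0.16 for Xbp1). The abundant lumenal chaperones Hsp90b1 (−0.38, adjusted p = 0.0901) and Calr (−0.33, adjusted p = 0.104) were not called.

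Outside that list, some genes of stress signalling and collagen folding were lower in all 6 fits. Chac1, a glutathione-degrading target of the stress factor ATF4, was at 4.12, 3.83 and 4.66 CPM in knockout and 8.86, 13.0 and 17.7 CPM in wild type (−1.49 ± 0.24, adjusted p = 0.00771). Bhlha15, the secretory cell factor Mist1, fell by 1.34 from a low level of 3.77 to 4.96 CPM (adjusted p = 0.00432). P4ha1, a subunit of the prolyl hydroxylase that stabilises collagen, was at 77.1, 67.2 and 68.4 CPM against 140, 127 and 141 CPM (−0.94 ± 0.09, adjusted p = 0.000624). P4ha2 was at 41.9, 40.7 and 36.5 CPM against 60.9, 59.5 and 61.6 CPM (−0.61 ± 0.10, adjusted p = 0.00824), and Sesn2, a stress-induced sestrin, fell by 0.62 (adjusted p = 0.00898). Chac1 and Bhlha15 were named after their values were seen.

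The promoter of Hspa5 carries a textbook endoplasmic reticulum stress element, CCAAT and CCACG with 9 bases between them, marked in capitals in its RefSeq window (chr2:34771840-34772139, GRCm38.p6, plus strand).
Hspa5: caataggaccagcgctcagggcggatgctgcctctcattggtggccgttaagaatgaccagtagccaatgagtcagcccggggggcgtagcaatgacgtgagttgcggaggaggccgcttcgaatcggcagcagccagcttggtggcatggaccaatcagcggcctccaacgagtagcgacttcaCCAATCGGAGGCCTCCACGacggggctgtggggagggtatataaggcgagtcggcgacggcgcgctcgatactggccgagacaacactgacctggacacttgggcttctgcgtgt

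This spelling was searched after the counts were known. It was in the windows of 2 of 5 called members (Creld2 and Hspa5), of 7 of 24 members that were not called, among them Hsp90b1 and Calr, and of 0.157% of all tested genes with a window.

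**Figure D3:**
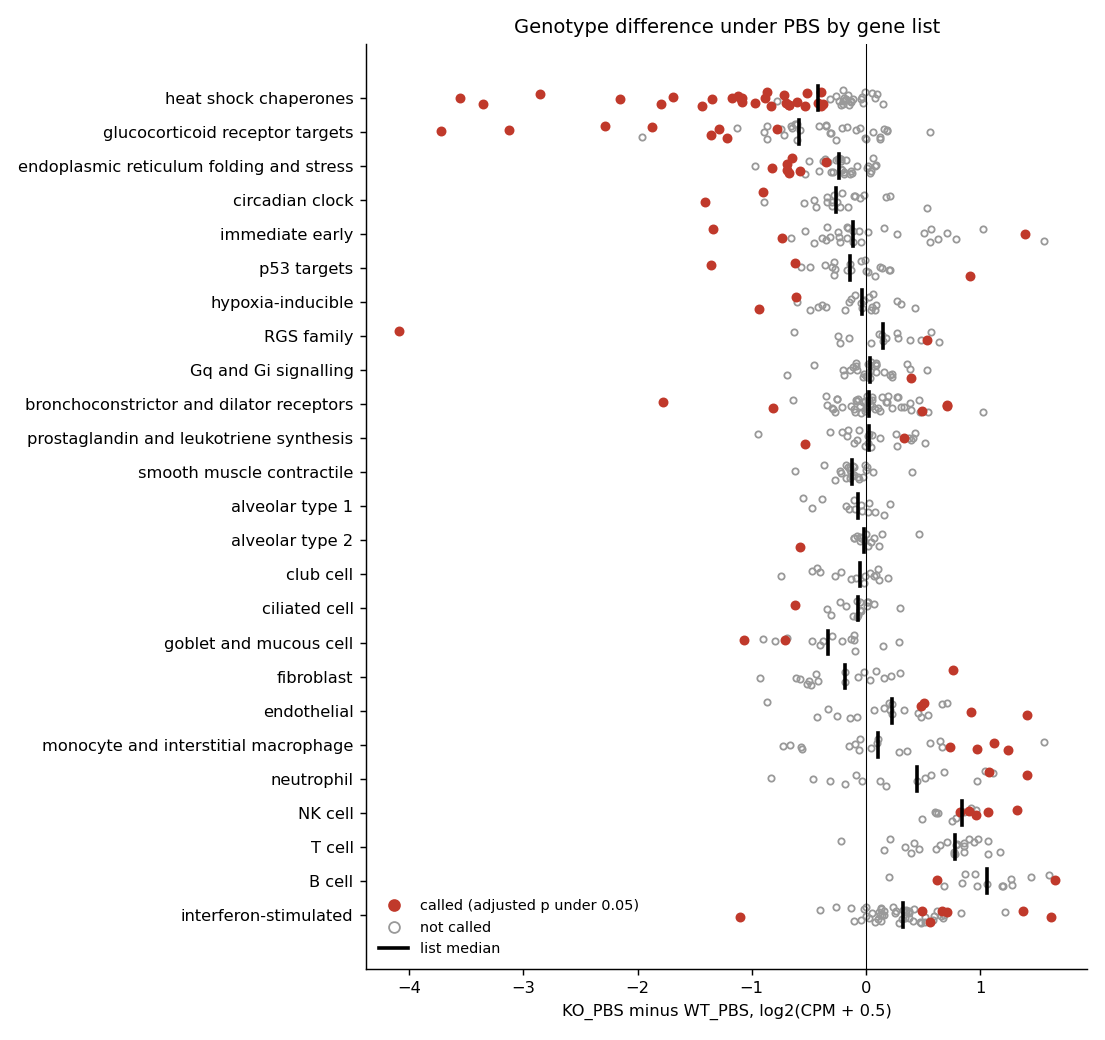
Genotype difference under PBS (knockout minus wild type, log2(CPM + 0.5), linear axis) for each tested member of the main lists, with called genes filled in red, other genes open, and the list median as a bar. Heat shock, glucocorticoid and endoplasmic reticulum lists sit left of 0 with medians of −0.42, −0.59 and −0.24, lymphocyte lists sit right of 0, the smooth muscle list has a median of −0.12, and the alveolar lists centre near 0.

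Lists close to the known role of Rgs4 are set against the 3.55% called over all genes. Of 17 RGS genes tested 2 (11.8%) were called, but 1 of them was Rgs4 itself, whose fall was fixed by the knockout. Of the others only Rgs3, another regulator of Gq and Gi, was called, and it rose. Rgs3 was at 136, 142 and 131 CPM in knockout and 88.6, 99.4 and 93.9 CPM in wild type, without overlap (0.53 ± 0.10, adjusted p = 0.0169), and was called only when WT_PBS 16 was the library left out (adjusted p up to 0.089, without KO_PBS 10). Rgs5, the neighbour of Rgs4 and a vascular member of the family, was at 58.1, 42.1 and 66.4 CPM against 29.6, 33.5 and 42.7 CPM, overlapping at the edge (0.64 ± 0.33, adjusted p = 0.362). Rgs2 was not called either (0.48 ± 0.18, adjusted p = 0.181). Of 30 genes of Gq and Gi signalling, 1 rose and 0 fell (3.33%): Grk6, a receptor kinase, by 0.39 ± 0.08 (adjusted p = 0.0255, lost without any 1 of the 6 libraries, up to 0.13). Gnaq, the Gq alpha subunit, was at 130, 137 and 125 CPM against 126, 132 and 134 CPM (0.00 ± 0.12, adjusted p = 1).

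Among 52 receptors for bronchoconstrictors and dilators, 3 rose (Cysltr2, Adra1a and Adora2a) and 2 fell (9.62% called). Npr3, the clearance receptor for natriuretic peptides, was at 69.1, 66.4 and 68.9 CPM in knockout and 256, 209 and 243 CPM in wild type. The groups were widely separated (−1.78 ± 0.28, 3.43-fold, adjusted p = 0.00759), and the call held in all 6 fits. Lpar1, a lysophosphatidic acid receptor, fell by 0.82 (adjusted p = 0.0216), a call lost without any single knockout library or WT_PBS 15 (up to 0.0876). Cysltr2, a leukotriene receptor, rose by 0.71 from a low level of 0.538 to 0.824 CPM (adjusted p = 0.0376, lost without any 1 of the 6 libraries, up to 0.136). Adra1a, an alpha-adrenergic receptor, rose by 0.50 (adjusted p = 0.0336) and was called only without WT_PBS 17 (up to 0.154 otherwise). Chrm3, the muscarinic receptor of airway smooth muscle, was at 5.65, 5.61 and 4.26 CPM against 5.67, 5.55 and 5.05 CPM (−0.07 ± 0.17, adjusted p = 0.883).

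Of 24 smooth muscle contractile genes, 0 were called by limma, edgeR or DESeq2, with 1 higher and 3 lower at an unadjusted p under 0.05 and a median of −0.12. Still, 21 of the 24 lay below 0, and the summed level was 5044, 5218 and 5233 CPM in KO_PBS 9, 10 and 11 against 5495, 5584 and 5485 CPM in WT_PBS 15, 16 and 17, without overlap. Acta2 was at 298, 289 and 313 CPM in knockout and 301, 347 and 330 CPM in wild type (−0.12 ± 0.09, adjusted p = 0.557), and Myh11, the smooth muscle myosin, at 248, 259 and 234 CPM against 213, 275 and 254 CPM (0.01 ± 0.24, adjusted p = 0.995). Both pairs of groups overlapped. Of 24 prostaglandin and leukotriene synthesis genes 2 (8.33%) were called: 1 rose (Alox5, 5-lipoxygenase, 0.34 ± 0.08, adjusted p = 0.0391, lost without any 1 of the 6 libraries, up to 0.148) and 1 fell, the Ptges3 already described as a co-chaperone. Ptgs2, the inducible cyclooxygenase, was not called (−0.10 ± 0.22, adjusted p = 0.87).

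Summed lymphocyte markers were higher in the knockout libraries, and WT_PBS 15 was the lowest library. Of single markers, 13.3% of the B cell, 0% of the T cell and 35.7% of the NK list were called. The share over all genes tested was 3.55%. Summed B cell markers were 523, 529 and 488 CPM in KO_PBS 9, 10 and 11 and 134, 358 and 334 CPM in WT_PBS 15, 16 and 17. Summed T cell markers were 331, 423 and 387 CPM against 164, 295 and 250 CPM, and NK markers 117, 136 and 116 CPM against 46.2, 83.5 and 63.9 CPM. For all 3 lists the knockout libraries lay above every wild-type library, with WT_PBS 15 lowest. In whole lung, fewer cells of a type and less RNA per cell cannot be told apart.

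By single genes the lists differed in their counts. Of 15 B cell markers 2 rose, Fcer2a and Cd22 (median 1.06, or 0.49 without WT_PBS 15), although all 15 lay above 0. At an unadjusted p of 0.05, 12 passed, against 17.3% of all genes tested in either direction. The count called was 0 without KO_PBS 9, KO_PBS 10, KO_PBS 11 or WT_PBS 17, 3 without WT_PBS 15 and 5 without WT_PBS 16. Of 24 T cell markers, 0 were called by limma, edgeR or DESeq2, with 7 higher at an unadjusted p under 0.05, a median of 0.78 (0.48 without WT_PBS 15) and 23 above 0. Of 14 NK markers 5 rose (Gzma, Nkg7, Klrk1, Txk and Ccl5), with a median of 0.84 (0.66 without WT_PBS 15) and all 14 above 0. The NK count was 3 without KO_PBS 9 or WT_PBS 15, 0 without KO_PBS 10, 2 without KO_PBS 11 or WT_PBS 17, and 6 without WT_PBS 16.

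Fcer2a, the low-affinity IgE receptor of B cells, was at 31.0, 36.5 and 33.3 CPM in knockout and 4.55, 18.4 and 12.8 CPM in wild type, without overlap and with WT_PBS 15 lowest (1.65 ± 0.36, adjusted p = 0.0318; lost without any knockout library or WT_PBS 17, up to 0.123). The lymph node homing receptor Ccr7 was at 33.9, 52.99 and 44.0 CPM against 6.54, 18.3 and 15.6 CPM (1.76 ± 0.29, adjusted p = 0.00984). Its call was lost without KO_PBS 10 (adjusted p = 0.0558), the library with its highest level. Cd69, an early activation marker, rose by 1.63 ± 0.24 (adjusted p = 0.00575) and kept its call in all 6 fits. Gzma, the cytotoxic granzyme A, was at 21.7, 26.4 and 22.5 CPM against 6.33, 12.3 and 9.64 CPM (1.32 ± 0.22, adjusted p = 0.0103), and was lost only without KO_PBS 10 (0.0575).

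Among the immunoglobulin constant regions 1 of 13 (7.69%) was called, against 3.55% of all genes tested. Ighg1, the IgG1 heavy chain of class-switched plasma cells, was at 8.60, 10.4 and 6.95 CPM in knockout and 87.2, 103 and 55.8 CPM in wild type. The lowest wild-type library was over 5 times the highest knockout library, and the 8.85-fold difference (−3.15 ± 0.36, adjusted p = 0.00162) was called in all 6 fits. Of 97 immunoglobulin variable genes 13 fell and 0 rose, with 95 below 0 and a median of −1.04. That count rested on single libraries: it was 2 with WT_PBS 17 left out (median −0.67). Leaving out KO_PBS 9, 10 or 11 gave 5, 0 and 1, and leaving out WT_PBS 15 or 16 gave 21 and 7. edgeR called 10 and DESeq2 37. The other main constant regions were spread too widely to be called: Ighm was at 898, 327 and 446 CPM against 712, 982 and 2768 CPM (−1.29 ± 0.57, adjusted p = 0.263), Igkc stood at −1.35 ± 0.56 (adjusted p = 0.236) and the joining chain Jchain at −1.70 ± 0.67 (adjusted p = 0.211). Ighd, the IgD of naive B cells, was at 62.1, 71.0 and 66.0 CPM against 7.74, 35.4 and 26.9 CPM (1.73 ± 0.46, adjusted p = 0.0636). WT_PBS 17, which had the highest Ighm and Igkc, also carried the squamous markers.

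A small set of monocyte genes rose. Of 21 monocyte and interstitial macrophage markers 4 rose (Ccr2, Treml4, Cx3cr1 and Plac8) and 0 fell. The share called was 19%, against 3.55% of all genes tested, and the median was 0.11. The list was divided, with 13 members above 0 and 8 below. At an unadjusted p under 0.05, 8 were higher and 3 lower, and DESeq2 called 5 higher and 3 lower. The summed level was 7347, 7372 and 7423 CPM in KO_PBS 9, 10 and 11. It was 8688, 7163 and 6424 CPM in WT_PBS 15, 16 and 17, so the sums overlapped. Without KO_PBS 9, KO_PBS 10 or KO_PBS 11, 2 were called. Ccr2, the chemokine receptor of classical monocytes, was at 52.8, 60.8 and 50.3 CPM against 25.5, 30.7 and 26.5 CPM (0.97 ± 0.14, adjusted p = 0.00556). Treml4, a receptor of the patrolling subset and of splenic macrophages, was at 16.9, 14.0 and 14.9 CPM against 5.38, 7.12 and 6.05 CPM (1.24 ± 0.18, adjusted p = 0.00469). Both kept their calls in all 6 fits, with about double the level in knockout and no overlap. Outside this marker list, Adgre4, an adhesion receptor of myeloid cells, behaved alike at 22.8, 18.5 and 23.2 CPM against 4.14, 8.81 and 7.98 CPM (1.61 ± 0.24, adjusted p = 0.00607). So did Ms4a4c, also outside the marker list (1.62 ± 0.19, adjusted p = 0.00162). Cx3cr1 rose by 1.12 (adjusted p = 0.0456) but was called only without WT_PBS 15 (up to 0.159 otherwise, without KO_PBS 10). Of 14 alveolar macrophage markers, 0 were called by limma, edgeR or DESeq2, with 1 higher at an unadjusted p under 0.05.

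Of 53 interferon-stimulated genes 6 rose and 1 fell (13.2% called, against 3.55% of all genes tested). The median was 0.33, and 22 were higher at an unadjusted p under 0.05, which 17.3% of all genes tested passed in either direction. The count of 6 was 2 without KO_PBS 10 and 4 without KO_PBS 11 or WT_PBS 15. Ifi47, an interferon-inducible GTPase, was at 39.1, 36.9 and 40.8 CPM against 25.8, 24.6 and 22.9 CPM (0.66 ± 0.10, adjusted p = 0.00459) and was called in all 6 fits. The member that fell was Ifi205, a DNA-sensor family gene discussed with the neighbours of Rgs4.

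Endothelial genes rose in part. Of 22 markers 4 rose and 0 fell (18.2% called, against 3.55% of all genes tested), with a median of 0.23. The 4 were Apold1, Esm1, the transcription factor Erg and the angiopoietin receptor Tek, with 2 called without KO_PBS 10 or KO_PBS 11. Apold1, an apolipoprotein-like gene induced in endothelium by stress, was at 6.36, 8.25 and 7.38 CPM against 3.06, 2.17 and 2.13 CPM (1.41 ± 0.18, adjusted p = 0.00246). Esm1, endocan of tip cells, was at 41.3, 33.8 and 36.7 CPM against 18.9, 20.3 and 18.8 CPM (0.92 ± 0.15, adjusted p = 0.00771). Outside the list, Clec14a, an endothelial lectin of sprouting vessels, was at 684, 734 and 772 CPM in knockout and 308, 396 and 411 CPM in wild type (0.98 ± 0.11, adjusted p = 0.0015). These 3 kept their calls in all 6 fits, and in each the groups were clearly apart. Erg rose by 0.50 (adjusted p = 0.0155; lost without KO_PBS 10 or KO_PBS 11, up to 0.0864) and Tek by 0.49 (adjusted p = 0.0354; lost without any 1 of the 6 libraries, up to 0.137). The pan-endothelial Pecam1 was at 1093, 1038 and 1031 CPM against 976, 1024 and 1007 CPM (0.07 ± 0.11, adjusted p = 0.807), and the receptor Kdr was not called (0.66 ± 0.22, adjusted p = 0.141). Other genes with stable rises were the homeobox gene Hlx (1.06 ± 0.14, adjusted p = 0.00298), the heparan sulfotransferase Hs3st1 (1.06 ± 0.14, adjusted p = 0.00246) and the kinase Plk2 (0.91 ± 0.13, adjusted p = 0.0053).

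**Figure D4:**
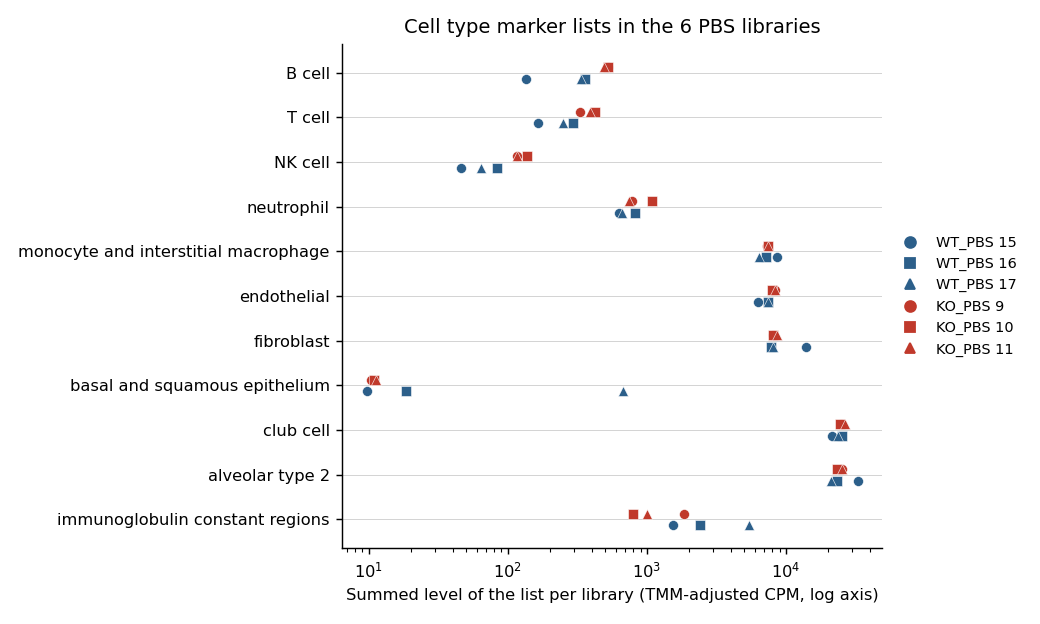
Summed level of 11 marker lists in each PBS library (CPM, log axis), knockout in red and wild type in blue, with 1 marker shape per library. B, T and NK cell sums are higher in all 3 knockout libraries, WT_PBS 15 is lowest for each of them and highest for fibroblast markers at 14006 CPM, and WT_PBS 17 stands alone for squamous epithelium at 679 CPM.

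The neutrophil and antigen presentation lists had 11.8% and 16.7% of members called, against 3.55% of all genes tested. Of 17 neutrophil markers 2 rose and 0 fell, with a median of 0.45. Retnlg, a resistin-like peptide of granulocytes, was at 42.3, 37.2 and 59.9 CPM against 14.4, 24.2 and 13.5 CPM (1.41 ± 0.27, adjusted p = 0.0177; lost without KO_PBS 9, KO_PBS 11, WT_PBS 15 or WT_PBS 17, up to 0.08). Mmp9, a granule protease, rose by 1.08 (adjusted p = 0.0182; lost without KO_PBS 9 or KO_PBS 10, up to 0.0973). Of 12 genes of MHC class II presentation 2 rose, H2-Ob and H2-Oa, which form the DO modulator found in B cells. H2-Ob was at 20.3, 22.7 and 21.5 CPM against 5.92, 12.6 and 9.59 CPM, with WT_PBS 15 lowest as for the B cell markers (1.21 ± 0.21, adjusted p = 0.011, lost without KO_PBS 10 at 0.0594).

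Of 31 immediate early genes 1 rose and 2 fell (9.68% called, against 3.55% of all genes tested), with a median of −0.12. Without WT_PBS 17 the balance turned, with 5 higher and 1 lower and a median of 0.09. No member was called without KO_PBS 9, KO_PBS 10, KO_PBS 11 or WT_PBS 16, and without WT_PBS 15 there were 3 lower and 0 higher. edgeR called 0 higher and 2 lower, and DESeq2 4 of each. Atf3, a stress-induced factor, was at 17.9, 19.2 and 16.1 CPM against 27.0, 37.3 and 94.2 CPM, with WT_PBS 17 highest (−1.34 ± 0.33, adjusted p = 0.0474; lost without any knockout library or WT_PBS 16, up to 0.158). Maff fell by 0.73 (adjusted p = 0.0453) and Egr3 rose by 1.40 (adjusted p = 0.0438), the first being lost without any 1 of the 6 libraries (up to 0.139) and the second called only without WT_PBS 17 (up to 0.183 otherwise). Of 22 p53 target genes Cdkn1a and Sesn2 fell and Plk2 rose (13.6% called), so the list did not move one way. Of 24 hypoxia-inducible genes 2 (8.33%) fell, P4ha1 and P4ha2, with a list median of −0.04. No gene was called by limma, edgeR or DESeq2 among 78 cytosolic ribosomal protein genes, where 2 were higher at an unadjusted p under 0.05. All 78 lay above 0 (median 0.21), and their summed level was 21707, 22393 and 24820 CPM in knockout against 19979, 19992 and 19808 CPM in wild type, without overlap. In the cell cycle list 0 of 31 were called by limma and 3 by DESeq2. At an unadjusted p under 0.05, 9 were higher, where 17.3% of all genes tested passed in either direction.

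Among epithelial lists, 6.67% of alveolar type 2, 5.88% of ciliated and 12.5% of goblet and mucous cell markers were called. The share over all genes tested was 3.55%. Of 14 alveolar type 1 and 16 club cell markers, 0 were called by limma, with 0 in each list at an unadjusted p under 0.05. Of 15 alveolar type 2 markers 1 fell, the alarmin Il33 (−0.58 ± 0.12, adjusted p = 0.0293), which was called only when WT_PBS 17 was left out (up to 0.104 otherwise, without KO_PBS 10), and the surfactant gene Sftpc was not called (−0.05 ± 0.35, adjusted p = 0.967). Among 17 ciliated cell markers Foxj1, the master regulator of motile cilia, was at 73.3, 78.7 and 75.7 CPM against 112, 116 and 123 CPM (−0.62 ± 0.07, adjusted p = 0.00182) and kept its call in all 6 fits, while the list median was −0.07. Of 16 goblet and mucous cell markers 2 fell: the mucin Muc5b, at 49.6, 53.4 and 38.8 CPM against 87.8, 104 and 105 CPM (−1.06 ± 0.20, adjusted p = 0.0154; lost without KO_PBS 9, KO_PBS 11 or WT_PBS 17, up to 0.0703), and the factor Spdef, from 2.47 to 3.59 CPM in wild type (−0.71 ± 0.15, adjusted p = 0.024), which was called only without WT_PBS 16 (up to 0.107 otherwise).

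Trim65 and Banp, with stable falls, belong to no list. Trim65, a ubiquitin ligase, was at 19.2, 18.8 and 19.9 CPM in knockout and 37.1, 38.6 and 44.7 CPM in wild type (−1.04 ± 0.10, adjusted p = 0.000691). Banp, a nuclear DNA-binding protein, was at 16.8, 15.7 and 17.8 CPM against 41.9, 36.1 and 41.0 CPM (−1.22 ± 0.16, adjusted p = 0.00318). Both were named after their values were seen. Within each gene the groups were tight and apart, and the calls held in all 6 fits.

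Genes near Rgs4 were called more often than the rest of the genome. Within 1 Mb of the start of Rgs4, and leaving out Rgs4 itself, 5 of 12 tested genes were called (41.7%), 1 higher and 4 lower. The share was 16% of 50 within 2 Mb, 11.3% of 115 within 5 Mb, 10.9% of 184 within 10 Mb and 8.497% of 306 within 20 Mb. It was 4.68% of 684 genes farther out on chromosome 1 and 3.45% over the genome beyond 20 Mb. Neighbouring genes are not independent of each other, so no test is attached to these shares.

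Ccdc190, a coiled-coil gene, starts 0.181 Mb from Rgs4 (ENSMUSG00000070532.5, chromosome 1, 169928648 to 169934653, plus strand). It was at 8.85, 9.36 and 8.26 CPM in KO_PBS 9, 10 and 11 and at 0.373, 0.564 and 0.236 CPM in WT_PBS 15, 16 and 17, or 188 to 252 reads against 5 to 13. The knockout libraries were nearly equal and far above wild type. The 10.6-fold difference (3.40 ± 0.18, adjusted p = 2.78e-06) had the smallest p after Rgs4, and it was also present with mould, at 3.86 (adjusted p = 6.58e-07). With mould, WT_Af 18, 19 and 20 had 8, 6 and 12 reads. Ccdc190 thus reached 1 CPM only in knockout libraries and was tested only through the genotype where it was high. The adjusted p values of Ccdc190 are therefore not separate support for the difference. Gm7068, a predicted gene 8.06 Mb away, had 60, 45 and 24 reads in knockout and was listed at 0 in all 3 wild-type libraries, where 0 allows up to 3 reads each (adjusted p = 0.000691). It was again seen in every knockout and in 0 wild-type libraries after mould, with 19, 20 and 20 reads, and was named after its values were seen. Gm7068 reached 1 CPM only in the KO_PBS libraries, so it was tested only through the group where it was high. Its adjusted p is therefore not separate support for the difference.

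On the other side of 0 within 1 Mb were Olfml2b, an extracellular matrix protein, at 16.9, 17.0 and 19.6 CPM against 31.0, 25.6 and 29.9 CPM (−0.68 ± 0.10, adjusted p = 0.00554, called in all 6 fits), Uap1 of the hexosamine pathway (−0.41, adjusted p = 0.0179), the kinase Uhmk1 (−0.33, adjusted p = 0.0469) and the lymphocyte adaptor Sh2d1b1 (−0.86, adjusted p = 0.0301). The calls of Uhmk1 and Sh2d1b1 were lost whichever of the 6 libraries was left out (up to 0.183 and 0.125), and that of Uap1 without any knockout library or WT_PBS 17 (up to 0.0907). A cluster of interferon-inducible DNA-sensor genes within 5 Mb was divided: Ifi208 (0.94), Ifi206 (0.91) and Ifi209 (0.79) rose, while Ifi205 fell by 1.10, the wild-type libraries ranging between 12.7 and 23.9 CPM (adjusted p = 0.0172). These paralogs share sequence, so reads may be split among them, and without KO_PBS 10 none of the 4 kept its call (up to 0.0602, 0.0986, 0.151 and 0.0878).

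**Figure D5:**
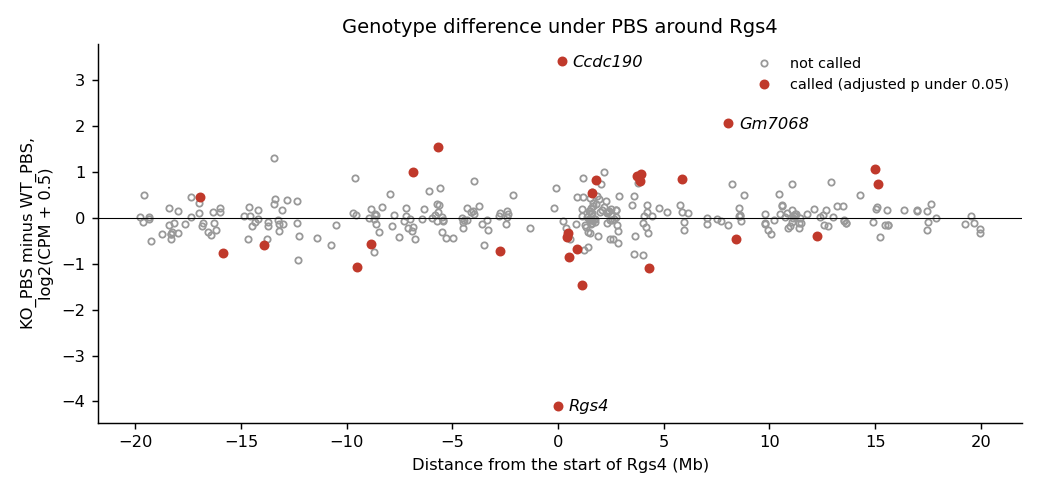
Genotype difference under PBS (knockout minus wild type, log2(CPM + 0.5)) of tested genes against distance from the start of Rgs4 in Mb, with called genes filled in red. Rgs4 at −4.09 and Ccdc190 at 3.40 stand out at the centre, and called genes on both sides of 0 are denser near it.

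Most of these differences were not called in mould-exposed lung. Between KO_Af and WT_Af 14 genes were called (0.0868%), and 7 of the 573 were called there in the same direction: Rgs4, Ccdc190, Hsph1, Dnaja1, Trim65, Apold1 and Gm7068. Of the 573, 384 had the same sign under mould, 122 of them at an unadjusted p under 0.05, and 561 had a smaller absolute difference there. The heat shock list had a median of −0.08 under mould, the glucocorticoid list 0.33 and the endoplasmic reticulum list 0.01. The summed heat shock level was still apart, at 9383, 9629 and 8701 CPM in KO_Af and 11715, 12473 and 10976 CPM in WT_Af. The sums of the glucocorticoid and endoplasmic reticulum lists overlapped there. Hsph1 was at 58.0, 77.9 and 62.5 CPM in KO_Af and 177, 240 and 151 CPM in WT_Af, still apart (−1.49, adjusted p = 0.0122). Fkbp5 was at 47.6, 62.8 and 219 CPM against 94.3, 70.6 and 96.6 CPM, so that KO_Af 14 lay above and the other knockout libraries below wild type (0.01, adjusted p = 0.996). The difference between the genotype effects was tested for every gene, and 1 of 16126 (0.0062%) was called. It was not called for Cdkn1a (adjusted p = 0.0557), Hsp90aa1 (0.059), Fkbp5 (0.0893) or Hsph1 (0.0893), nor by edgeR (0.0512, 0.0635, 0.0873 and 0.0873). DESeq2 called all 4 (adjusted p = 9.07e-08, 1.28e-07, 0.000973 and 0.000196), so whether their genotype difference changed with exposure depends on the tool.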

How the data were processed

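Lung RNA was extracted with a Qiagen RNEasy kit and sequenced from Illumina TruSeq mRNA libraries, per the labels' protocols. The submitters' processing notes name cutadapt 1.18, STAR 2.7.6a and RSEM 1.3.0, and the builds GRCm38 and GRCh38 without their roles. The authors deposited 1 signal table of all genes and libraries, in CPM with TMM (trimmed mean of M-values) scaling. Dividing by the value of 1 read gave whole numbers for 100% of entries (tolerance 0.01), which served as recovered counts. Overlapping, antisense and near-identical genes are uncertain, since the labels do not state strand use. Of 49585 identifiers, 49326 (99.48%) matched GENCODE M21 on GRCm38, 26 symbols stored as dates were restored, and 186 entries share a symbol.

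The test was limma 3.58.1 (R 4.3.3) with a mean-variance trend on log2(CPM + 0.5), in 1 fit of the 4 groups of 3 libraries (8 residual degrees of freedom) and low genes' changes are understated on that scale. The same fit gave the test of whether the genotype effects differ between exposures. Alternatives were other pseudocounts, filters, rescalings, variance models and fits without a library and, added after the data were seen, edgeR 4.0.16 and DESeq2 1.42.0 on the recovered counts. The fit was tested on simulated data. Named genes were Rgs4, the 15 largest rises and falls among called genes without overlap, the 5 most abundant called genes each way, up to 4 called members per list (all for the heat shock, glucocorticoid and endoplasmic reticulum lists) and called genes within 5 Mb of Rgs4, leaving out receptor and immunoglobulin segments and Gm and Rik names. Genes outside that rule were chosen after their values were seen: Hsf1, Hspe1, Cryab, Tsc22d3, Per1, Klf9, Dusp1, Sgk1, Nr3c1, Hsp90b1, Calr, Rbm3, Srsf5, Rgs5, Rgs2, Gnaq, Chrm3, Ptgs2, Acta2, Myh11, Igkc, Ighm, Ighd, Jchain, Hlx, Hs3st1, Kdr, Pecam1, Trim65, Banp, Chac1, Bhlha15, Sftpc, Gm15459 and Gm7068. The members, gene lists and rules were chosen with earlier results of these data known. Pseudogenes were matched to transcripts with blastn 2.17.0, and figures drawn with matplotlib 3.10.9. A count of 0 allows up to 3 reads, for counting error only.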

Additional observations from a re-analysis of the deposited data

Results flagged for a closer look

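Sult4a1, a brain-type cytosolic sulfotransferase, was the 1 gene whose genotype difference was called as differing between the exposures. Its level was 0.249, 0.223 and 0.571 CPM in KO_PBS 9, 10 and 11 and 4.06, 3.90 and 0.945 CPM in WT_PBS 15, 16 and 17, a difference of −1.88 (limma adjusted p = 0.0255). Under mould the order turned: 6.80, 5.42 and 3.43 CPM in KO_Af against 0.384, 0.295 and 0.225 CPM in WT_Af, a difference of 2.79 (adjusted p = 0.0271). The difference of the 2 effects was −4.68 on the log2 scale (limma adjusted p = 0.0465). Read counts were 7, 6 and 13 in KO_PBS, 98, 90 and 20 in WT_PBS, 173, 118 and 89 in KO_Af and 8, 9 and 6 in WT_Af, so the groups did not overlap under either exposure. The PBS call was lost without KO_PBS 9, KO_PBS 10, KO_PBS 11, WT_PBS 15 or WT_PBS 16 (adjusted p up to 0.113). The limma call of the difference between exposures was lost without KO_PBS 9, KO_PBS 10, WT_PBS 15, WT_PBS 16 or any WT_Af library. It was also lost without a filter, with 5 CPM as the filter and without the trend. edgeR and DESeq2 called that difference (adjusted p = 0.0238 and 1.08e-14).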

How the results depend on the processing

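The count of 573 called genes was 373 without a filter on low values, 2646 with array weights, 1124 in a fit of the PBS libraries alone and 1216 with DESeq2, and 131 to 430 with 1 library left out. It stayed within 1.5 times under the other alternatives run, from 503 without a mean-variance trend to 686 with upper quartile rescaling. edgeR called 543, of which 519 were also called by limma, and DESeq2 called 570 of the 573. With upper quartile rescaling the count of called differences between exposures was 12, with quantile normalization 7, with a pseudocount of 1 it was 2, with array weights 1602, with DESeq2 362, and without a filter, with 5 CPM as the filter or without the trend it was 0. Leaving out 1 library gave 0 to 187. The largest, 187, was without KO_Af 13. Fits with fewer libraries have fewer residual degrees of freedom, and other causes of these changes were not tested. Of 137 named genes that were called, 0 changed sign under any alternative, 86 lost the call without at least 1 library, and 39 under at least 1 other alternative. The heat shock count of 28 ran from 18 without KO_PBS 9 to 36 with array weights, and was 25 without a filter or trend. The glucocorticoid count of 8 was 18 with array weights or the PBS libraries alone and 13 with DESeq2, and the endoplasmic reticulum count of 7 was 22, 12 and 17. No paired analysis was possible because each library number belongs to 1 library and the groups share none.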
